A study of Ovis aries with 10 samples.

Results

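The custom ovine array carried 8 probes whose names start with oar-miR-154 or oar-miR-487, of 152 miRNA probes in all, and the name was the only basis on which they were chosen. They cover both arms of the hairpins miR-154a, miR-154b, miR-487a and miR-487b. The tissue came from 5 female Merino sheep, aged 9 months by the labels, in which bleomycin, a drug that injures the lung, was infused into 1 caudal lung segment and saline into another segment of the same animal, with tissue taken at 4 weeks. Total RNA from the fibrotic and the normal segment of each sheep was hybridised to 1 array each, which gave 5 fibrotic and 5 normal arrays of the sheep numbered 2, 3, 6, 7 and 10. The sheep were those with the most severe injury of a larger group, and the normal tissue came from a treated animal and not from an untreated one. The labels place the fibrotic segment on the left in sheep 2 and 3 and on the right in sheep 6, 7 and 10, whereas the methods describe bleomycin on the left throughout. Conditions follow the labels here.

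MicroRNAs are short RNAs cut from hairpin precursors, and each hairpin can yield a mature strand from its 5p and its 3p arm, of which usually 1 is loaded more into the Argonaute complex that represses target mRNAs. The miR-154 and miR-487 hairpins lie in the imprinted DLK1-DIO3 region, where a large cluster of miRNAs is transcribed from the maternal chromosome and is most active in the embryo and the placenta. In sheep this region is also known for the callipyge muscle phenotype. In human lung, miR-154 has been studied in fibroblasts in connection with pulmonary fibrosis. In the sheep assembly ARS-UI_Ramb_v3.0, the 4 hairpin genes lie on chromosome 18 in a run of 55 miRNA genes. MIR487B stands there between MIR381 and MIR539, MIR487A between MIR3959 and MIR382, and MIR154A beside MIR154B, with MIR323B before and MIR496 after the pair. The array build was not given in the sources used here, so no coordinates are printed.

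The values were intensities on a linear scale with the background removed, and values below 1 were raised to 1 before the log2 was taken. A probe whose mean log2 signal over the 10 arrays was under 5, an intensity of 32, was called dim. By this measure 7 of the 8 probes were dim, against 93 of all 152, and miR-487b-3p was the exception with a mean log2 signal of 5.87. Of the 80 values of the 8 probes, 15 were below an intensity of 1, in miR-487a-3p, miR-487a-5p and miR-487b-5p. Summed miRNA intensity ranged from 138979 to 146225 between arrays, while the number of miRNAs below 1 ranged from 6 to 32. The array of the normal segment of sheep 7 stood apart from the rest of its animal. Over the 152 miRNAs its deviations from the condition mean had r = -0.67 with the fibrotic segment of sheep 7 and r = 0.77 with the fibrotic segment of sheep 3. Results that rest on these arrays are therefore also given without sheep 3 and 7.

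No difference between the fibrotic and the normal segments passed the test for any of the 8 miRNAs. In the fit of limma with the sheep as a block, 0 of 8 had an adjusted p under 0.05, against 0.0% of all 152 miRNAs. At an unadjusted p under 0.05 the count was again 0 of 8, with 11.8% of all miRNAs past that threshold. Of the 8, 0 moved the same way within each of the 5 sheep, against 13.8% of all 152. Neither miR-487a-3p nor miR-487a-5p could do so, as both segments of some sheep were below the floor. The intensities of the fibrotic and the normal segments overlapped for each of the 8 miRNAs. Overlap was not counted over all 152, so nothing particular to the 8 is read from it. The fitted mean change was above 0 for 3 and below 0 for 5, with a median log2 change of -0.19, compared with -0.02 over all 152 miRNAs. The median of the 8 turned to 0.070 with arrays centred on the control probes, to 0.0056 without sheep 7, to 0.12 without sheep 3 and 7, and to 0.20 with bleomycin assigned to every left segment. Of the single directions, those of miR-154a-3p and miR-154b-3p changed with the scaling, while the other 6 kept their sign under each of the 4 other scalings tried. The 4 mean changes of the 5p arms were all below 0, and 3 of the 4 of the 3p arms were above 0, with medians of -0.88 and 0.15. The 5p values rested on sheep 3 and 7, without which they were 0.34 for miR-154a-5p, -0.00028 for miR-154b-5p, -0.30 for miR-487a-5p and -0.03 for miR-487b-5p. With bleomycin assigned to every left segment, miR-154b-5p, miR-487a-5p and miR-487b-5p were above 0, at 0.25, 0.37 and 0.70.

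**Figure D1:**
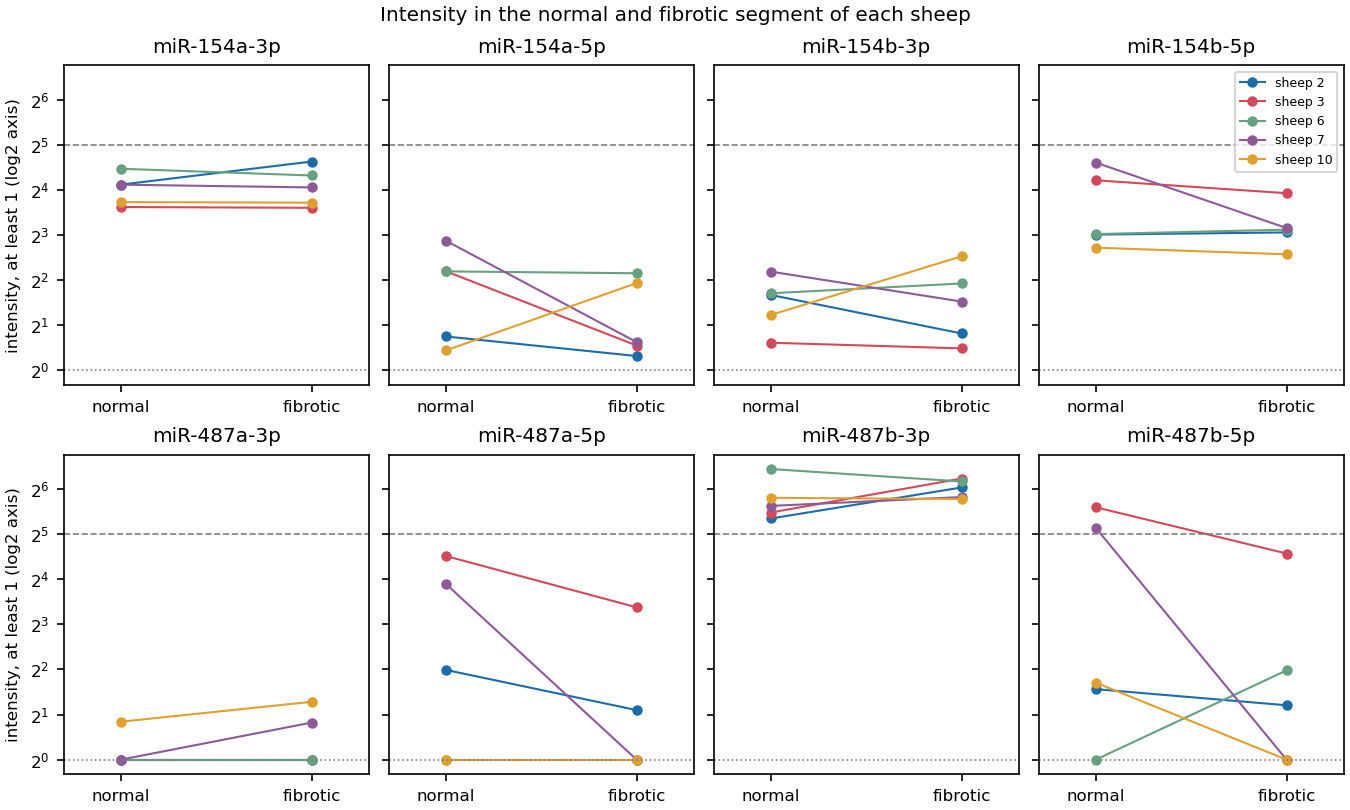
Intensity of the 8 miRNAs, set to at least 1 (vertical log2 axis), in the normal and the fibrotic segment, with 1 line per sheep. The dashed line marks the intensity of 32 that separates dim probes and the dotted line the floor of 1. Only miR-487b-3p lay above the dashed line on all 10 arrays, and in each panel the normal and fibrotic values overlap.

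The miR-487b-3p strand was the only member whose mean signal was above the dim range. In the normal segments its intensity was 40.6, 44.5, 86.9, 49.3 and 55.8 in sheep 2, 3, 6, 7 and 10. In the fibrotic segments it was 65.4, 75.1, 71.8, 56.5 and 54.8 in sheep 2, 3, 6, 7 and 10. The 3 lowest arrays were normal segments, those of sheep 2, 3 and 7, but the highest array was also a normal segment, that of sheep 6, so the groups overlapped. The mean log2 signal was 5.74 ± 0.43 (SD, n = 5) in the normal and 6.00 ± 0.20 (SD, n = 5) in the fibrotic segments. The mean log2 change was 0.27 (SE 0.20), with a 95% confidence interval from -0.24 to 0.77 and an adjusted p of 0.540. Within sheep it was 0.69, 0.75, -0.28, 0.20 and -0.03 in sheep 2, 3, 6, 7 and 10, so 3 of 5 sheep were higher in the fibrotic segment. The exact two-sided sign-flip permutation test gave p = 0.375, where 5 sheep cannot give less than 0.0625. In whole tissue such as this, a different number of cells with a miRNA and a different amount of it per cell cannot be told apart.

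The opposite arm, miR-487b-5p, spread far more widely. Its intensity in the normal segments was 2.95, 48.3, 0.863, 35.2 and 3.26 in sheep 2, 3, 6, 7 and 10. In the fibrotic segments it was 2.31, 23.7, 3.94, 0.196 and 0.615 in sheep 2, 3, 6, 7 and 10. Both segments of sheep 3 and the normal segment of sheep 7 were thus above 20, and no other array reached 4. The mean log2 change was -1.25 (SE 0.99, 95% confidence interval from -3.74 to 1.24, adjusted p = 0.540). Sheep 7 alone had a log2 change of -5.14, and without sheep 7 the mean was -0.28. With sheep 3 also left out it was -0.03. Raising the floor from 1 to 32 took the mean log2 change of all 5 sheep to -0.15.

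Both arms of miR-487a were dim. The intensity of miR-487a-3p ranged from 0.0780 to 1.79 in the normal and from 0.211 to 2.43 in the fibrotic segments, and 7 of its 10 values were below 1. Its mean log2 change was 0.25 (SE 0.18, adjusted p = 0.540), which came from sheep 7 and sheep 10, since both segments of the other 3 sheep were below 1. The intensity of miR-487a-5p in the normal segments was 3.97, 22.8, 0.647, 14.9 and 0.170 in sheep 2, 3, 6, 7 and 10. In the fibrotic segments it was 2.14, 10.4, 0.368, 0.278 and 0.421 in sheep 2, 3, 6, 7 and 10. The highest values were again those of sheep 3 and of the normal segment of sheep 7. The mean log2 change of miR-487a-5p was -1.18 (SE 0.62, 95% confidence interval from -2.75 to 0.38, adjusted p = 0.509), and its unadjusted p of 0.111 in limma was the smallest of the 8. It was lower in the fibrotic segment in 3 of 5 sheep, with both segments below 1 in sheep 6 and 10, and the mean was -0.51 without sheep 7 and -0.30 without sheep 3 and 7.

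Of the miR-154 strands, miR-154a-3p varied least. Its intensity in the normal segments was 17.4, 12.3, 22.1, 17.3 and 13.3 in sheep 2, 3, 6, 7 and 10. In the fibrotic segments it was 24.7, 12.2, 19.97, 16.6 and 13.2 in sheep 2, 3, 6, 7 and 10. In 4 of 5 sheep the log2 change lay between -0.15 and -0.01, and in sheep 2 it was 0.51. The mean log2 change was 0.05 (SE 0.14, 95% confidence interval from -0.31 to 0.42, adjusted p = 0.840), the narrowest interval of the 8. Its sign turned after quantile normalization, to -0.13, and after centring on the miRNA median, to -0.10.

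The other miR-154 strands were dim on every array. The intensity of miR-154b-5p in the normal segments was 8.06, 18.6, 8.12, 24.3 and 6.59 in sheep 2, 3, 6, 7 and 10. In the fibrotic segments it was 8.33, 15.2, 8.69, 8.91 and 5.95 in sheep 2, 3, 6, 7 and 10. Its mean log2 change was -0.35 (SE 0.26, adjusted p = 0.540), with -1.45 in sheep 7 and between -0.29 and 0.10 in the others. Without sheep 7 the mean was -0.07. For miR-154a-5p the intensity ranged from 1.36 to 7.33 in the normal and from 1.25 to 4.45 in the fibrotic segments, and the mean log2 change was -0.58 (SE 0.57, adjusted p = 0.593). The change of miR-154a-5p was -0.16 without sheep 7, -0.31 without sheep 3, -1.09 without sheep 10, and 0.34 without sheep 3 and 7. For miR-154b-3p it ranged from 1.53 to 4.56 and from 1.40 to 5.77, and the mean log2 change was -0.02 (SE 0.34, adjusted p = 0.984). That of miR-154b-3p became 0.04 with arrays centred on the 75th percentile, 0.09 after quantile normalization and 0.23 with arrays centred on the control probes.

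**Figure D2:**
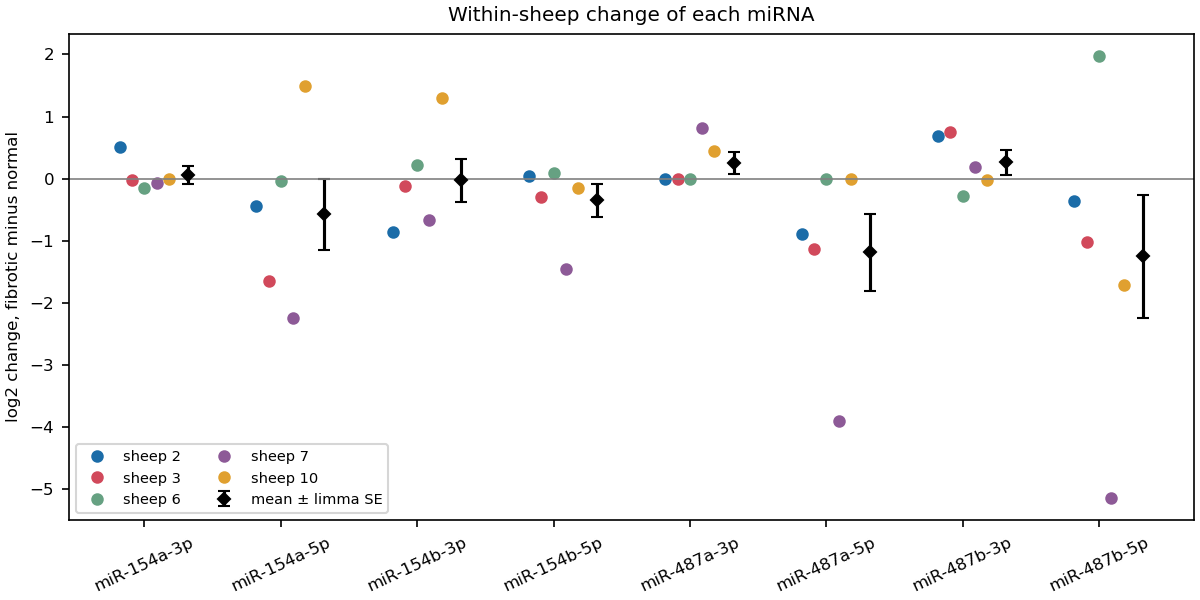
Log2 change from the normal to the fibrotic segment of each sheep (coloured points) for the 8 miRNAs, with the mean and the SE of limma (black diamonds and bars). The points of each miRNA fall on both sides of 0 or on it, and sheep 7 gave the lowest values of miR-487a-5p, miR-487b-5p, miR-154a-5p and miR-154b-5p.

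The pattern over arrays was shared by 3 of the 5p strands. The normal and fibrotic segments of sheep 3 and the normal segment of sheep 7 were the 3 highest arrays for miR-154b-5p, miR-487a-5p and miR-487b-5p. The lowest of these 3 arrays was at 15.2, 10.4 and 23.7 for the miRNAs in that order, and the highest of the other 7 at 8.91, 3.97 and 3.94. The same arrays led for 24 of all 152 miRNAs (15.8%), for 8 of the 43 other 5p probes of the cluster and for 4 of its 44 other 3p probes. By signal, they led for 15 of 93 dim miRNAs (16.1%) and for 9 of 59 that were not dim (15.3%). Bright miRNAs from outside the cluster, such as let-7a and miR-30b, were among the latter. Among the 55 control probes they led for 2, Ctr04-3M05 and Ctr04-3M10, which were looked at after the values of the miRNAs were seen. The design of these controls was not given in the sources used here. Ctr04-3M05 had 41.4 and 26.6 in the normal and fibrotic segments of sheep 3, 45.8 in the normal segment of sheep 7, and at most 9.48 on the other 7 arrays. Over the 10 arrays its r with miR-487b-5p was 0.89, with miR-154b-5p 0.87 and with miR-487a-5p 0.85, whereas with miR-487b-3p it was -0.06. Ctr04-3M05 was picked because the arrays that led for these 5p strands led for it too. These values of r therefore follow largely from that choice and are given as a description. The control Ctr04-3P, which shares the start of its name with Ctr04-3M05 and Ctr04-3M10, was between 58.4 and 173 and had r = -0.40 with miR-487b-5p. The part of these arrays in the 5p signals was not tested.

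**Figure D3:**
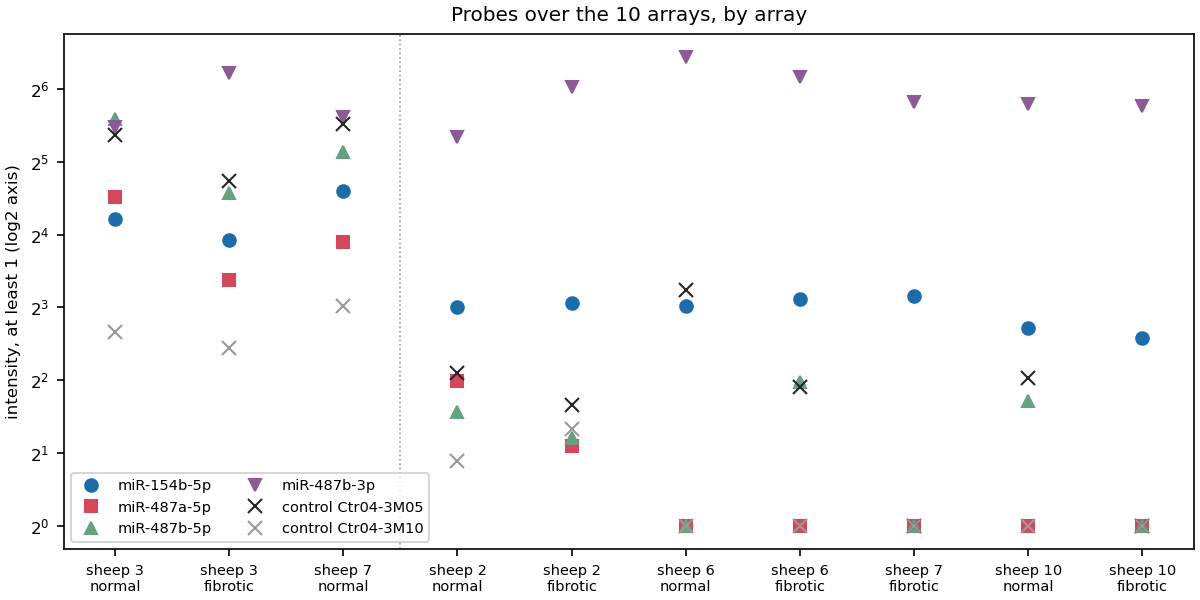
Intensity, set to at least 1 (vertical log2 axis), of 3 dim 5p strands, of miR-487b-3p and of the control probes Ctr04-3M05 and Ctr04-3M10 on each of the 10 arrays. Left of the dotted line, in both segments of sheep 3 and the normal segment of sheep 7, the 5p strands and both controls are at their highest, which is not so for miR-487b-3p. Both controls were picked for being highest on these arrays.

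Correlations between the members over the 10 arrays are given as a description, since both segments of a sheep are in them and the probes share each array. Over the 28 pairs of members the median r was -0.16. The a and b paralogs of the 5p strand of miR-487 had r = 0.92 and rho = 0.77. The strand miR-154b-5p, from a hairpin named miR-154, had r = 0.90 with each of them. Without sheep 3 and 7 these values fell to 0.30 between the miR-487 paralogs, to 0.37 between miR-154b-5p and miR-487a-5p, and to 0.40 between miR-154b-5p and miR-487b-5p. The other paralog pairs had r = 0.43 for miR-154-5p, 0.20 for miR-154-3p and -0.15 for miR-487-3p. The arms of 1 hairpin had r between -0.54 and 0.04, which was thus lower than between the 5p strands of different hairpins named above.

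**Figure D4:**
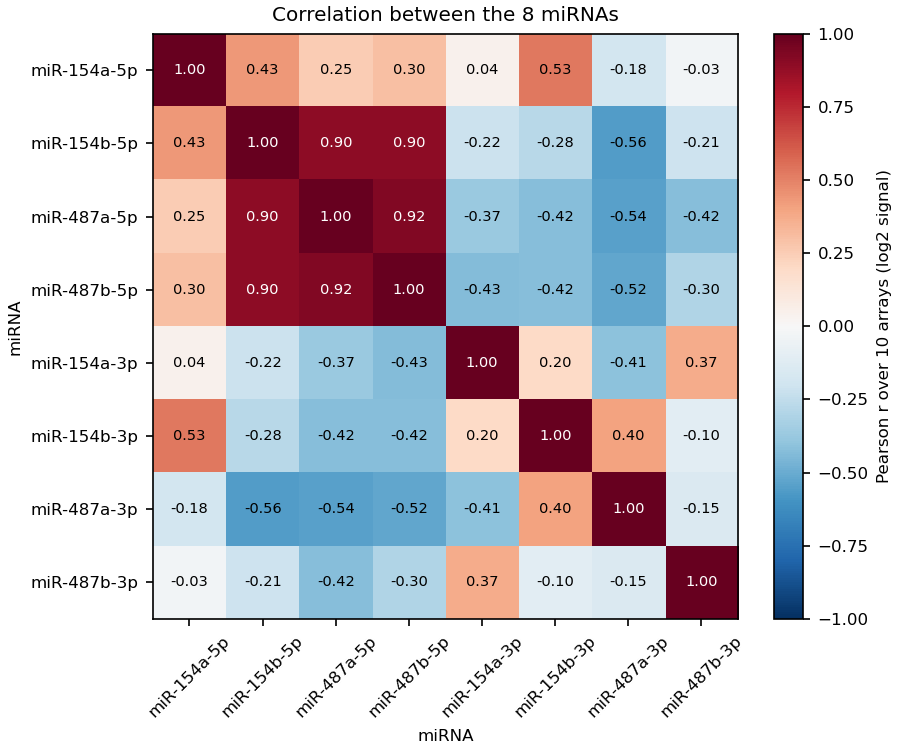
Pearson r of the log2 signal over the 10 arrays for each pair of the 8 miRNAs, with the 5p arms first and r printed in each cell. The block of high values joins miR-154b-5p, miR-487a-5p and miR-487b-5p at 0.90 to 0.92, while both arms of a hairpin are at most at 0.04.

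Arm use was compared as the log2 ratio of the 5p to the 3p signal of a hairpin. As the probes may bind their targets differently, the ratio itself does not say which arm was more abundant, and only its change between arrays was read. A value below the floor of 1 entered a ratio at 1, so the ratio is then a limit set by the floor and not a measured one. This held on 3 of 10 arrays for miR-487b and on 10 of 10 for miR-487a, of which 2 had both arms below 1, and on 0 for both miR-154 hairpins. For miR-487b the highest ratio was 0.12, in the normal segment of sheep 3, and in the normal segment of sheep 6 the ratio was at most -6.44, since the 5p signal was below 1. Its mean was -2.94 ± 2.72 (SD, n = 5) in the normal and -4.45 ± 1.70 (SD, n = 5) in the fibrotic segments with these limits included, a change of -1.52 (SE 1.21). For miR-487a the change was -1.44 (SE 0.84), for miR-154a -0.63 (SE 0.66) and for miR-154b -0.32 (SE 0.39). The exact sign-flip permutation test over the 5 sheep gave p = 0.125 for miR-487a, 0.3125 for miR-487b and 0.375 for both miR-154 hairpins. For miR-487a this was the least the test could give. Its change was 0 in sheep 6, where both arms were below 1 in both segments, and below 0 in the other 4 sheep. Adjusted over the 4 hairpins, each exact p was 0.375. Without sheep 3 and 7 the change was -0.16 for miR-487b, -0.44 for miR-487a, 0.22 for miR-154a and -0.22 for miR-154b. Leaving out 1 sheep, it ran from -1.80 without sheep 6 to -0.62 without sheep 7 for miR-487a and from -0.63 without sheep 2 to -0.04 without sheep 10 for miR-154b, and without sheep 7 it was -0.56 for miR-487b.

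The ratio of the b to the a paralog of the same arm showed smaller mean changes. On the log2 scale these were -0.08 (SE 0.45) for miR-154-3p, 0.23 (SE 0.51) for miR-154-5p, 0.01 (SE 0.29) for miR-487-3p and -0.06 (SE 0.66) for miR-487-5p. Their exact permutation p ranged from 0.6875 to 1, and each was 1 after adjustment over the 4 pairs. Each of these changed sign without sheep 3 and 7. With bleomycin assigned to every left segment, the change for miR-487-3p was 0.56, with an exact permutation p of 0.0625. Under that assignment the exact permutation p of the other pairs lay between 0.3125 and 0.6875. On 7 of 10 arrays miR-487a-3p was below the floor, so that the ratio for miR-487-3p there only follows miR-487b-3p, and on 5 of 10 arrays at least 1 of the miR-487 5p strands was below it. With 5 sheep this test cannot go below 0.0625, so it could not have passed 0.05 for any ratio. The study's name miR-487, given without a paralog or arm, is not resolved to 1 of the probes here.

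The miRNAs whose signal was most like miR-487b-3p over the 10 arrays, among 58 candidates that were not dim, were miR-432 (r = 0.90, rho = 0.81), miR-127 (r = 0.82, rho = 0.72) and miR-21 (r = 0.66, rho = 0.66). Both miR-432 and miR-127 are members of the DLK1-DIO3 cluster, and miR-21 is a miRNA from outside it that is widely studied in fibrosis. In the normal segments miR-432 had 17.2, 15.6, 97.4, 19.7 and 40.5 in sheep 2, 3, 6, 7 and 10. In the fibrotic segments it had 42.7, 40.7, 72.6, 36.2 and 48.2 in sheep 2, 3, 6, 7 and 10. As with miR-487b-3p, the normal segment of sheep 6 was the highest array and the normal segments of sheep 2, 3 and 7 were the 3 lowest. Intensities of miR-127 ranged from 131 in the normal segment of sheep 3 to 796 in that of sheep 6. Without sheep 3 and 7, r with miR-487b-3p was 0.96 for miR-432, 0.94 for miR-127 and 0.82 for miR-21. The log2 change was 0.68 (SE 0.31) for miR-432, 0.45 (SE 0.26) for miR-127 and 0.73 (SE 0.25) for miR-21, with adjusted p of 0.484, 0.518 and 0.411.

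**Figure D5:**
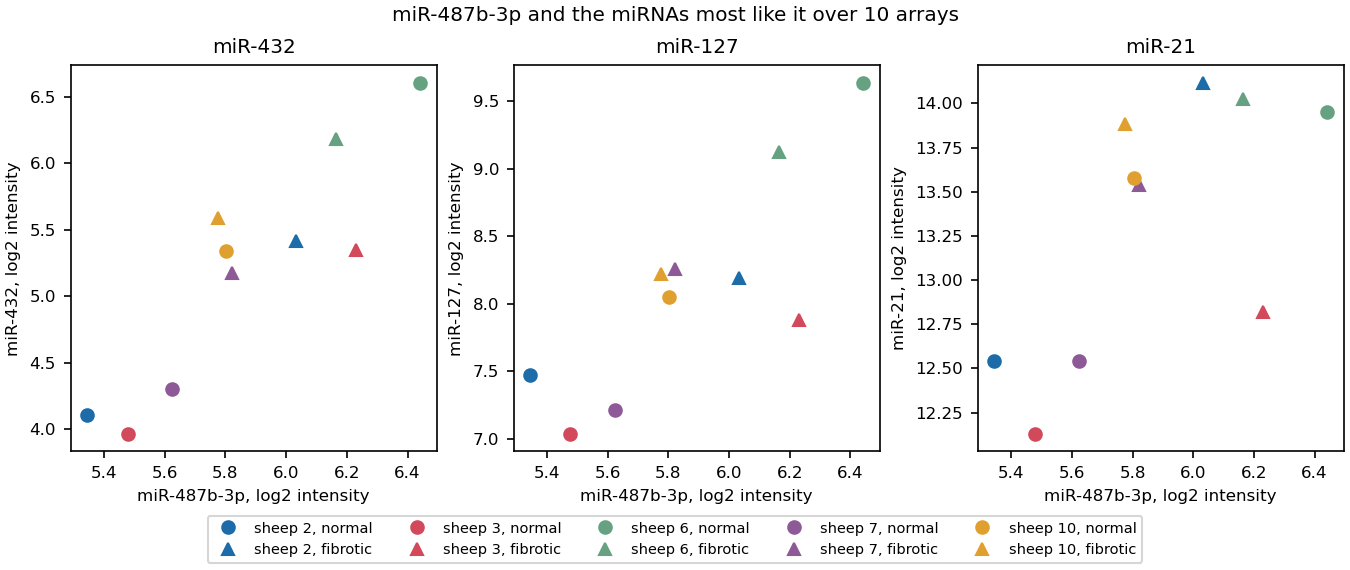
Log2 intensity of miR-432, miR-127 and miR-21 (vertical axes) against that of miR-487b-3p (horizontal axes), with 1 point per array, colours for sheep, circles for normal and triangles for fibrotic segments. The normal segments of sheep 2, 3 and 7 lie at the lower left of each panel, and Pearson r is 0.90, 0.82 and 0.66.

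The rest of the DLK1-DIO3 cluster was measured by 94 other probes, all of which the gene order of the assembly placed in the same run. Their mean changes were above 0 for 48 and below 0 for 45, with a median log2 change of 0.01, and 0 had an adjusted p under 0.05. At an unadjusted p under 0.05 there were 6 higher and 6 lower. As for the miR-154 and miR-487 probes, most were dim, at 86 of 94. Of the 8 that were not, 7 had a mean change above 0, and the median was 0.38, beside 0.27 for miR-487b-3p. The highest were miR-432 at 0.68 (SE 0.31), miR-379-5p at 0.64 (SE 0.26) and miR-495-3p at 0.46 (SE 0.38). The lowest were miR-494-3p at -0.26 (SE 0.49), miR-411a-5p at 0.15 (SE 0.28) and miR-376e-3p at 0.23 (SE 0.15). Their adjusted p lay between 0.428 and 0.835. By arm, the median was -0.10 over 43 other 5p probes and 0.20 over 44 other 3p probes of the cluster.

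Markers of cell types were given by few probes, and 0 of these had an adjusted p under 0.05. The epithelial miR-200a, miR-200b and miR-200c, 3 of 6 listed, had summed intensities from 2400 to 4319 in the normal and from 3496 to 6712 in the fibrotic segments. Within sheep, miR-200b was higher in the fibrotic segment in 5 of 5 sheep (log2 change 0.58, adjusted p = 0.411), with 0.67 for miR-200a and 0.36 for miR-200c. For miR-143 and miR-199a-3p, 2 of 4 listed for smooth muscle and mesenchyme, the sums ranged from 5564 to 20054 and from 8483 to 16264. Within sheep, miR-199a-3p was higher in 5 of 5 (log2 change 0.49, adjusted p = 0.411), and the mean change of miR-143 was 0.06. The ranges for miR-150, 1 of 5 listed for blood cells, were 445 to 2107 and 309 to 1985, and for miR-133, 1 of 3 listed for striated muscle, 35.2 to 162 and 23.5 to 49.3, with mean log2 changes of -0.30 and -0.86. No marker was at 0, the endothelial miR-126 had no probe here, and the part of cell composition in the values of the 8 miRNAs was not tested.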

How the data were processed

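The fibrotic and normal caudal lung segment of 5 sheep was measured on 10 one-colour LC Sciences arrays with 152 ovine miRNA and 55 control probes. Per probe and array, the authors deposited a single intensity, corrected for background and averaged over repeated spots, on a linear scale although their methods describe log2 values. No scaling between arrays is given in the sources used here, and none was added. Intensities were set to at least 1, which applied to 14.8% of the miRNA values, and log2 transformed. In R 4.3.3, lmFit and eBayes of limma 3.58.1 were run on all 152 miRNAs with terms for sheep (block) and condition, with Benjamini-Hochberg adjustment. The fit was first tested on simulated data. Ratios were tested over sheep by exact two-sided sign-flip permutation in scipy 1.17.1. Pairing rests on the shared animal. Both segments' deviations from the condition means correlated at 0.34, 0.90, 0.40, -0.67 and 0.56 for sheep 2, 3, 6, 7 and 10.

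The members, the cluster and marker lists and the alternatives were chosen with earlier results of these data known. The miRNAs with full values are every probe named miR-154 or miR-487, the 3 others most like any of these that was not dim, and the 3 highest and 3 lowest changes among cluster probes that were not dim. Of the 152 miRNAs, 151 matched a gene of ARS-UI_Ramb_v3.0 by hairpin name. The alternatives were other scalings, a floor of 32, leaving out dim miRNAs, no block, an intensity trend, Student's test paired over sheep (the methods apply Student's test within each sheep over spots, which were not analysed here), the left segment taken as bleomycin-infused, and leaving out sheep. No 2 arrays were identical. The number of arrays limits the precision, and mature sequences are not used here.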

Additional observations from a re-analysis of the deposited data

Results flagged for a closer look

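Of 32 groups of 5 values examined for a value far from the others, 4 held one. Chance gives about 1 in 20 for separate groups, but these groups shared values and some values were set to the floor. The count is therefore not weighed against that rate. The log2 change of miR-154a-3p was 0.51 in sheep 2, far above the other 4 sheep. That of miR-154b-5p was -1.45 in sheep 7, far below the other 4 sheep. The log2 signal of miR-487a-3p in the normal segment of sheep 10 was 0.84, while the other 4 normal segments were at the floor. The log2 change of the 5p to 3p ratio of miR-487a was -4.72 in sheep 7, far below the other 4 sheep, with 1 arm at the floor in each of its segments.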

How the results depend on the processing

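The adjusted count was 0 under each alternative for which it was computed. The count at an unadjusted p under 0.05 fell from 18 to 8 with no replicate block, where the adjusted p of miR-487b-3p was 0.739. It was 7 with a floor of 32, 9 without dim miRNAs, 9 by Student's test paired over sheep, 3 with bleomycin assigned to every left segment, 4 without sheep 3 and 7 (chosen after seeing the data), and from 6 without sheep 3 to 26 without sheep 6 when 1 sheep was left out. The median log2 change of the members, -0.19, was 0.070 with arrays centred on the control probes, 0.20 with bleomycin assigned to every left segment, 0.12 without sheep 3 and 7, and from -0.38 without sheep 10 to 0.0056 without sheep 7. Centring moved the median of all miRNAs, to -0.13 on the miRNA median and to 0.19 on the control probes.

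The change of miR-487b-3p stayed above 0 under each alternative, from 0.11 with arrays centred on the miRNA median to 0.52 on the control probes, with adjusted p from 0.336 to 1. Of 90 alternative values of the member changes, counting settings that can move an estimate, 15 turned sign. Those of miR-154a-3p were -0.10 (miRNA median), -0.13 (quantile) and -0.060 to 0.11 leaving out 1 sheep. Those of miR-154b-3p were 0.036 (75th percentile), 0.089 (quantile), 0.23 (control probes), 0.22 without sheep 3 and 7, and -0.36 to 0.18 leaving out 1 sheep, and miR-154a-5p was 0.34 without sheep 3 and 7. With bleomycin assigned to every left segment, miR-154b-5p was 0.25, miR-487a-3p -0.25, miR-487a-5p 0.37 and miR-487b-5p 0.70.

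With a floor of 32, the change of miR-487b-5p was -0.15 and the 5p to 3p change of miR-487b was -0.41. The other dim members were below 32 on every array, so this floor left no change to compute for them. Of 89 alternative values of the ratio changes 19 turned sign. With bleomycin assigned to every left segment, the 5p to 3p change was 0.62 for miR-154b, 0.63 for miR-487a and 0.39 for miR-487b, and the b to a change of miR-487-5p was 0.32. Without sheep 3 and 7, the 5p to 3p change of miR-154a was 0.22, and the b to a change was 0.10 for miR-154-3p, -0.34 for miR-154-5p, -0.019 for miR-487-3p and 0.27 for miR-487-5p. Leaving out 1 sheep, these b to a changes ran from -0.43 to 0.24, -0.055 to 0.69, -0.17 to 0.17 and -0.58 to 0.35. After quantile normalization they were 0.22 for miR-154-3p and -0.086 for miR-487-3p, and with the miRNA median -0.0030 for miR-487-3p. The cause was not tested. Values of dim probes near the floor of 1 are limited by the signal over background.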
